A study of Arabidopsis thaliana with 12 samples.

Results

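RBOHE (AT1G19230), RBOHG (AT4G25090) and RBOHI (AT4G11230) are 3 of the 10 respiratory burst oxidase homologue (RBOH) genes of Arabidopsis thaliana, which encode the plant NADPH oxidases. They were taken as the probe sets that the platform annotation gives to these 3 loci, 1 probe set for each gene, out of 13356 genes that have a probe set of their own in that annotation of the Affymetrix ATH1 array. The annotation lists them by locus, and the RBOH symbols follow the usual nomenclature of the family. The other 7 RBOH genes were not analysed here.

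NADPH oxidases of plants sit in the plasma membrane, take electrons from NADPH in the cytosol and pass them to oxygen outside the cell, which makes superoxide in the wall space. Superoxide turns into hydrogen peroxide, by itself or through superoxide dismutases, and secreted class III peroxidases then use hydrogen peroxide to stiffen or loosen walls. The activity of the oxidases is set by calcium, by phosphorylation and by ROP GTPases, so a transcript level is not an activity. In roots the family is best known for RBOHC, the oxidase of growing root hairs, while RBOHE has been linked to the tapetum of the anther and RBOHI to drought responses.

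Signals were measured in the elongation zone and in the meristematic zone of roots from 3 genotypes. OX is the line 35S::UPB1-3YFP #2, which carries a YFP-tagged UPB1 gene behind the 35S promoter in the upb1-1 mutant background and is 1 transgenic line. The others are the mutant upb1-1 itself and wild-type Col-0, so OX and upb1-1 share the upb1-1 allele. UPB1 is a transcription factor of the bHLH family, and the series as titled concerns the control of reactive oxygen species at the step from proliferation to differentiation. All seedlings were 6 days old and grown on standard medium, the zones were cut apart with a razor blade, about 60 roots were pooled for a replicate, and RNA was amplified over 2 cycles before labelling. Each of the 6 groups had 2 arrays, which the labels call biological replicates. Nothing says whether the plates were grown apart, so p-values measure the spread between these arrays.

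The median signal of an array was 50.8 to 67.6. The ratio of 3' to 5' control probe sets, a measure of RNA and cDNA length, averaged 3.97 (log2) in OX, 4.04 in upb1-1 and 3.93 in Col-0 elongation zones, and 4.17 in OX, 2.04 in upb1-1 and 2.22 in Col-0 meristematic zones. OX meristematic arrays thus stood with the elongation arrays on this measure. UPB1 itself gave signals of 53.6 and 35.3 in OX, 11.9 and 15.6 in upb1-1, and 1379 and 1233 in Col-0 elongation zones. In meristematic zones its signals were 28.1 and 55.2 in OX, 8.53 and 16.8 in upb1-1, and 667 and 528 in Col-0. By the limma fit described below, UPB1 was higher in OX than in upb1-1 in both zones. The log2 change was 1.01 in elongation (adjusted p = 0.0113) and 0.98 in meristematic zones (adjusted p = 0.00548). Each call was lost in 2 of 13 alternatives. The UPB1 signal on the arrays labelled OX was still far below Col-0, which is low for a 35S-driven transgene. No source used here says whether the UPB1 probe set lies in the transgene. Directions below that involve OX are those of the arrays so labelled. The summed signal of 3 markers of dividing cells (AUR1, AUR2 and BUBR1) was 236 and 251 in OX, 203 and 124 in upb1-1 and 385 and 252 in Col-0 elongation zones, below all meristematic arrays (1412 and 1308 in OX, 706 and 728 in upb1-1, 778 and 731 in Col-0).

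RBOHE gave signals of 38.0 and 28.5 in OX, 80.3 and 172 in upb1-1, and 43.9 and 39.96 in Col-0 elongation zones (MAS5 signal, replicates 1 and 2). In meristematic zones it gave 8.09 and 17.2 in OX, 40.4 and 44.2 in upb1-1, and 83.4 and 55.9 in Col-0. Both upb1-1 elongation arrays lay above both OX and both Col-0 elongation arrays, and both OX meristematic arrays lay below every other array. Such gaps are common with 2 arrays in a group. Of all probe sets tested below, 56.1% did not overlap between upb1-1 and Col-0 elongation zones. For OX the share was 58.3% against upb1-1 elongation zones, and 79.2% against Col-0 and 80.7% against upb1-1 meristematic zones. The group means were 33.2 ± 6.70 in OX, 126 ± 65.2 in upb1-1 and 41.9 ± 2.80 in Col-0 elongation zones, and 12.6 ± 6.43 in OX, 42.3 ± 2.65 in upb1-1 and 69.7 ± 19.5 in Col-0 meristematic zones (SD, n = 2 each).

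RBOHG had the widest range of log2 signal of the 3 genes. Its signals were 12.4 and 22.0 in OX, 84.1 and 164 in upb1-1, and 19.7 and 35.6 in Col-0 elongation zones. On meristematic arrays they were 1.97 and 1.60 in OX, 33.4 and 45.4 in upb1-1, and 59.2 and 70.9 in Col-0. The OX meristematic values stood at percentiles 3.21 and 2.76 of their arrays, near the floor of the platform, so a ratio of signals against them has little meaning. Mean signals were 17.2 ± 6.79 in OX, 124 ± 56.3 in upb1-1 and 27.6 ± 11.2 in Col-0 elongation zones, and 1.79 ± 0.268 in OX, 39.4 ± 8.50 in upb1-1 and 65.1 ± 8.29 in Col-0 meristematic zones (SD, n = 2 each).

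RBOHI gave 2.32 and 21.5 in OX, 31.9 and 71.9 in upb1-1, and 19.6 and 14.7 in Col-0 elongation zones. Meristematic signals were 16.5 and 13.1 in OX, 38.3 and 24.5 in upb1-1, and 25.1 and 43.5 in Col-0. Both upb1-1 elongation arrays again lay above the OX and Col-0 elongation arrays, where 58.3% and 56.1% of the probe sets tested below did not overlap. The OX elongation replicates lay far apart, at percentiles 6.98 and 32.2 of their arrays, the first near the floor. Averages were 11.9 ± 13.6 in OX, 51.9 ± 28.3 in upb1-1 and 17.1 ± 3.44 in Col-0 elongation zones, and 14.8 ± 2.41 in OX, 31.4 ± 9.78 in upb1-1 and 34.3 ± 13.1 in Col-0 meristematic zones (SD, n = 2 each).

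**Figure D1:**
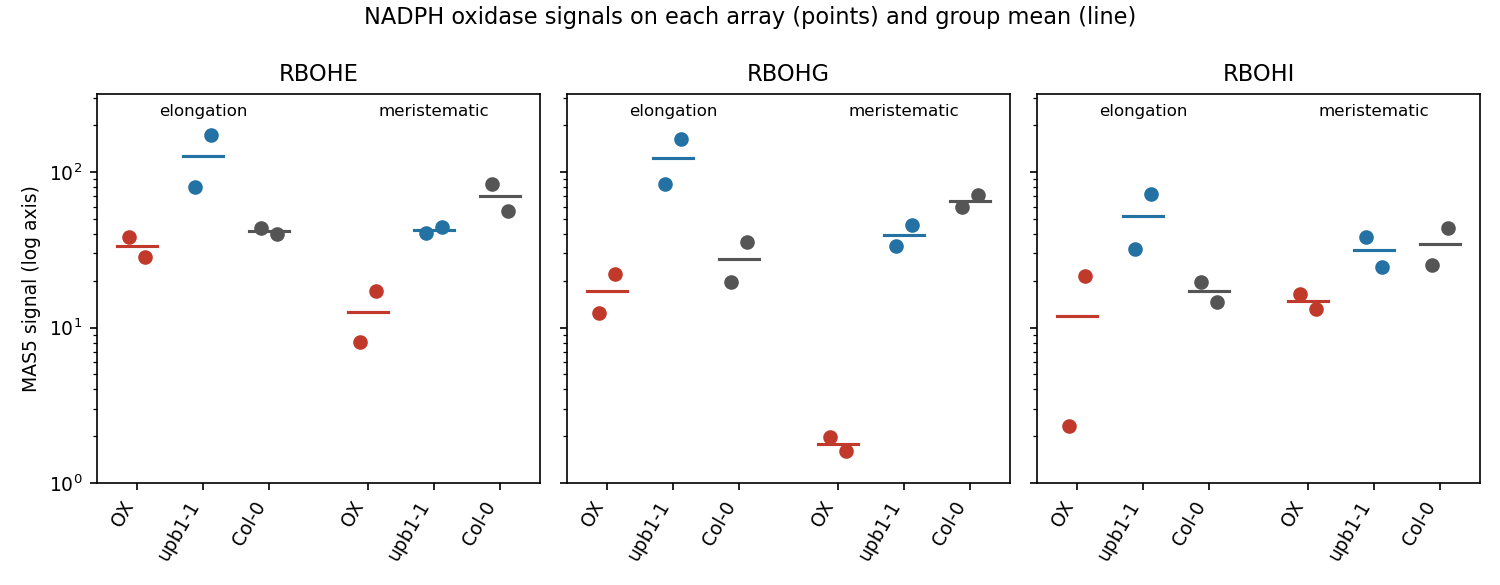
MAS5 signals of RBOHE, RBOHG and RBOHI on a log axis, for OX (35S::UPB1-3YFP #2 in upb1-1), upb1-1 and Col-0 in the elongation zone and in the meristematic zone; points are single arrays and lines are means of 2. In each panel the upb1-1 elongation mean is the highest (126, 124 and 51.9), and RBOHG falls to 1.97 and 1.60 on the OX meristematic arrays.

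All 3 of 3 genes passed the filter on low signals, which asked for the 40th percentile of the array on at least 2 arrays. RBOHE reached that level on 9 arrays in 5 groups, RBOHG on 6 arrays in 4 groups, and RBOHI on 3 arrays in 3 groups. No OX array reached it for RBOHG or RBOHI, and no OX meristematic array for RBOHE. The 3 genes reached the median of their array on 3, 3 and 1 arrays, so these are dim probe sets in most groups. Changes below are differences of mean log2(signal + 16) from a limma fit of all 12 arrays, with p-values adjusted over 15834 tested probe sets and a call at an adjusted p below 0.05. The added 16 makes the change of a dim probe set smaller than the ratio of its signals.

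In the meristematic zone RBOHG and RBOHE were lower in OX than in Col-0. RBOHG fell by 2.18 (log2, SE 0.32, 95% interval -2.86 to -1.51, adjusted p = 5.54e-05), and RBOHE fell by 1.58 (SE 0.31, interval -2.24 to -0.92, adjusted p = 0.000752). RBOHI gave -0.68 (interval -1.50 to 0.13, adjusted p = 0.150). Both OX arrays were below both Col-0 arrays, where 79.2% of all tested probe sets did not overlap. Thus 2 of the 3 genes fell and none rose, where 23.5% of all tested probe sets were lower and 49.5% were called in either direction. The change of RBOHG lay at percentile 3.25 and that of RBOHE at percentile 6.76 of all tested changes, whose median was 0.10. Both calls held in all 12 alternatives that could be computed, but their size moved with the added constant, from -4.57 (pseudocount 1) to -0.97 (pseudocount 64) for RBOHG and from -2.43 to -0.80 for RBOHE. The 3' to 5' control ratio was 4.17 (log2) on the OX and 2.22 on the Col-0 arrays of this comparison, and its part in the result was not tested. In pieces of tissue, fewer cells that express a gene and less RNA per cell cannot be told apart.

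Against upb1-1, the background of the line, the same 2 genes were lower in OX meristematic zones. RBOHG fell by 1.63 (SE 0.32, interval -2.31 to -0.95, adjusted p = 0.000628) and RBOHE fell by 1.04 (SE 0.31, interval -1.71 to -0.38, adjusted p = 0.0117). RBOHI gave -0.61 (adjusted p = 0.197). The count of 2 of 3 lower stands against 24.5% of all tested probe sets lower, and 52.0% called in either direction. The RBOHE call was lost without upb1-1 meristematic replicate 2 (-0.997, adjusted p = 0.0652) and without OX meristematic replicate 1 (-0.81, adjusted p = 0.0960). This comparison shares the OX arrays with the one against Col-0, and the control ratio was 4.17 in OX and 2.04 in upb1-1.

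Loss of UPB1 alone gave no call in the meristematic zone. RBOHE gave -0.54 (interval -1.20 to 0.13), RBOHG -0.55 (interval -1.23 to 0.12) and RBOHI -0.08 (interval -0.89 to 0.74) in upb1-1 against Col-0, each with an adjusted p of 1.00. The upb1-1 arrays lay below the Col-0 arrays for RBOHE and RBOHG and overlapped them for RBOHI. Of all tested probe sets 35.3% did not overlap between these groups. By limma 0 of the 3 genes were called, and 0 had an unadjusted p below 0.05 (0.106, 0.100 and 0.846), in a comparison where 0.0379% of all tested probe sets were called.

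In the elongation zone RBOHG and RBOHE were higher in upb1-1 than in Col-0. RBOHG rose by 1.64 (SE 0.32, interval 0.97 to 2.32, adjusted p = 0.00374), which is 3.13-fold on the signal + 16 scale. RBOHE rose by 1.22 (SE 0.31, interval 0.55 to 1.88, adjusted p = 0.0152), or 2.33-fold on that scale, and RBOHI gave 0.97 (interval 0.15 to 1.79, adjusted p = 0.0894). For each of the 3 genes both upb1-1 arrays were above both Col-0 arrays. A gap between the groups, in either direction, was found for 56.1% of all tested probe sets. By limma 2 of 3 rose and none fell, where 9.36% of all tested probe sets were higher and 18.8% were called in either direction. The changes of RBOHG, RBOHE and RBOHI lay at percentiles 98.6, 96.6 and 94.4 of all tested changes.

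The calls of these rises depended on which arrays were in the fit. RBOHG was no longer called without Col-0 elongation replicate 1 (1.38, adjusted p = 0.0635) or upb1-1 elongation replicate 2 (1.22, adjusted p = 0.0644). For RBOHE the call was lost without Col-0 elongation replicate 1 (1.27, adjusted p = 0.0943), Col-0 elongation replicate 2 (1.17, adjusted p = 0.0553) or upb1-1 elongation replicate 2 (0.73, adjusted p = 0.212), and with only the 4 arrays compared in the fit (1.22, adjusted p = 0.0634). RBOHI gained a call without upb1-1 elongation replicate 1 (1.41, adjusted p = 0.0242). Within upb1-1 elongation zones, replicate 2 exceeded replicate 1 by 0.97 for RBOHE, 0.84 for RBOHG and 0.88 for RBOHI (log2), while the median over all tested probe sets was -0.05 and the SD between replicates over all probe sets was 0.36, the highest of the 6 groups. The control ratio was 4.04 in upb1-1 and 3.93 in Col-0.

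OX and Col-0 elongation zones gave no call for the oxidases. The changes were -0.24 for RBOHE (interval -0.91 to 0.42, adjusted p = 0.657), -0.38 for RBOHG (interval -1.06 to 0.29, adjusted p = 0.458) and -0.33 for RBOHI (interval -1.15 to 0.48, adjusted p = 0.608). Arrays of the groups overlapped for RBOHG and RBOHI but not for RBOHE, where 55.0% of all tested probe sets did not overlap. By limma 0 of 3 were called, and 0 had an unadjusted p below 0.05, where 14.1% of all tested probe sets were called.

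All 3 oxidase genes were lower in OX than in upb1-1 elongation zones. RBOHG fell by 2.03 (SE 0.32, interval -2.70 to -1.35, adjusted p = 0.000419), RBOHE fell by 1.46 (SE 0.31, interval -2.12 to -0.79, adjusted p = 0.00381), and RBOHI fell by 1.31 (SE 0.38, interval -2.13 to -0.49, adjusted p = 0.0227). This was the only comparison of the 12 in which RBOHI was called, and the count of 3 of 3 lower stands against 12.6% of all tested probe sets lower and 24.2% called in either direction. It shares the upb1-1 arrays with the comparison against Col-0 above. For RBOHI only upb1-1 elongation replicate 2, at percentile 55.3, reached the 40th percentile among the arrays compared. Its replicate 1 stood at 39.8 and the OX arrays at 6.98 and 32.2, the first with a signal of 2.32 near the floor. RBOHI lost its call without upb1-1 elongation replicate 2 (-0.87, adjusted p = 0.239), without OX elongation replicate 1 (-0.79, adjusted p = 0.214) and with only the 4 arrays compared (-1.31, adjusted p = 0.0685). RBOHE lost its call without upb1-1 elongation replicate 2 (-0.97, adjusted p = 0.0682), and RBOHG kept its call in all 12 alternatives that could be computed, between -2.75 and -1.18. Control ratios were 3.97 in OX and 4.04 in upb1-1.

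**Figure D2:**
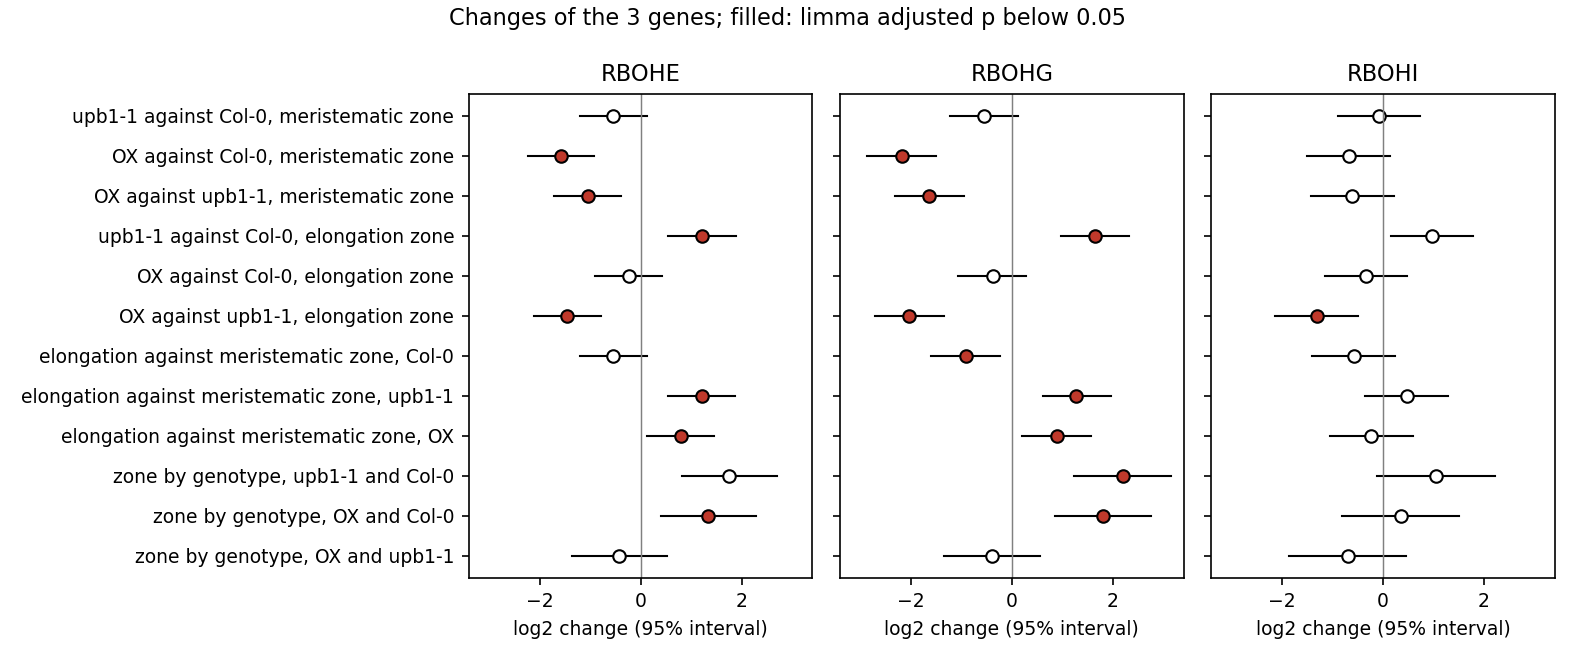
Log2 changes of RBOHE, RBOHG and RBOHI on the log2(signal + 16) scale with 95% intervals in the 12 comparisons; filled points have a limma adjusted p below 0.05, and each row names the group on top of the difference first. RBOHE and RBOHG are below 0 in OX against either other genotype, above 0 in upb1-1 against Col-0 elongation zones, and change side between Col-0 and the other genotypes in the zone comparisons, while RBOHI is filled in 1 row. In OX against Col-0 elongation zones no point is filled.

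The direction between zones depended on the genotype for RBOHE and RBOHG. In Col-0, elongation zones had less RBOHG than meristematic zones (log2 change -0.91, SE 0.32, adjusted p = 0.0318), RBOHE gave -0.55 (adjusted p = 0.180) and RBOHI -0.58 (adjusted p = 0.247). Each gene was lower on both Col-0 elongation arrays than on both Col-0 meristematic arrays. The zones did not overlap, in either direction, for 72.7% of all tested probe sets. The 1 call of 3, a lower one, stands against 22.8% of all tested probe sets lower and 40.3% called in either direction. The RBOHG call was lost without Col-0 meristematic replicate 1 (-1.02, adjusted p = 0.0825), Col-0 elongation replicate 1 (-0.65, adjusted p = 0.207) or Col-0 meristematic replicate 2 (-0.81, adjusted p = 0.155), and after quantile normalization (-0.66, adjusted p = 0.125) or median centring (-0.65, adjusted p = 0.129).

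In upb1-1, in contrast, RBOHG and RBOHE were higher in the elongation zone. RBOHG rose by 1.28 (SE 0.32, interval 0.61 to 1.96, adjusted p = 0.00337), RBOHE rose by 1.21 (SE 0.31, interval 0.54 to 1.87, adjusted p = 0.00452), and RBOHI gave 0.47 (adjusted p = 0.321). The share of all tested probe sets that rose was 24.1%, with 52.6% called in either direction. Without upb1-1 elongation replicate 2 both calls were lost, at 0.86 for RBOHG (adjusted p = 0.0662) and 0.72 for RBOHE (adjusted p = 0.0878). The control ratio differed between the zones in both these genotypes, with 4.04 in the elongation and 2.04 in the meristematic zone of upb1-1, and 3.93 and 2.22 in Col-0; its part in the zone differences was not tested.

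OX roots also had more RBOHG and RBOHE signal in the elongation zone, at lower levels. RBOHG rose by 0.89 (SE 0.32, adjusted p = 0.0282) and RBOHE rose by 0.79 (SE 0.31, adjusted p = 0.0432), while RBOHI gave -0.23 (adjusted p = 0.639). Of all tested probe sets 23.9% rose and 53.5% were called in either direction. Single arrays decided both calls. RBOHE was not called without OX meristematic replicate 1 (0.56, adjusted p = 0.240), OX elongation replicate 1 (0.65, adjusted p = 0.187) or OX elongation replicate 2 (0.93, adjusted p = 0.0656). RBOHG was not called without OX meristematic replicate 1 (0.90, adjusted p = 0.0777), OX meristematic replicate 2 (0.87, adjusted p = 0.0872) or OX elongation replicate 2 (0.68, adjusted p = 0.170). The control ratios of the zones were close in this line, at 3.97 in the elongation and 4.17 in the meristematic zone.

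Whether the zone difference itself differed between genotypes was tested as an interaction. For RBOHG the elongation minus meristematic difference was 2.20 higher in upb1-1 than in Col-0 (log2, SE 0.45, interval 1.24 to 3.15, adjusted p = 0.0207) and 1.80 higher in OX than in Col-0 (SE 0.45, interval 0.85 to 2.76, adjusted p = 0.0101). For RBOHE it was 1.34 higher in OX than in Col-0 (SE 0.44, interval 0.40 to 2.28, adjusted p = 0.0391), and 1.75 in upb1-1 against Col-0 did not pass (interval 0.82 to 2.69, adjusted p = 0.0515). RBOHI gave 1.05 for upb1-1 (adjusted p = 0.306) and 0.35 for OX (adjusted p = 0.677). Thus 1 of 3 genes was called higher for upb1-1 and 2 of 3 for OX, where 1.48% and 13.2% of all tested probe sets were called higher, and 2.27% and 24.0% in either direction. These tests share the Col-0 arrays. Between OX and upb1-1 no zone difference was called, at -0.42 for RBOHE, -0.40 for RBOHG and -0.70 for RBOHI (adjusted p = 0.517, 0.542 and 0.367), where 26.2% of all tested probe sets were. With a pseudocount of 1 the RBOHG value turned to 1.09 (adjusted p = 0.292) and the RBOHE value came to -0.06 (adjusted p = 0.959).

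Of the interaction calls, that of RBOHG in OX held in all 15 alternatives that could be computed, but its size was 3.92 with a pseudocount of 1 and 0.80 with a pseudocount of 64, against 1.80. It rests on OX meristematic signals of 1.97 and 1.60, near the floor. The control ratio differed between the zones by genotype, at 3.97 in the elongation and 4.17 in the meristematic zone of OX, 4.04 and 2.04 in upb1-1, and 3.93 and 2.22 in Col-0, and its part in the interactions was not tested. The RBOHG call in upb1-1 was lost without Col-0 meristematic replicate 1 (2.30, adjusted p = 0.0915), Col-0 meristematic replicate 2 (2.09, adjusted p = 0.0856), Col-0 elongation replicate 1 (1.93, adjusted p = 0.117), upb1-1 meristematic replicate 1 (2.04, adjusted p = 0.126), upb1-1 meristematic replicate 2 (2.36, adjusted p = 0.0650) or upb1-1 elongation replicate 2 (1.78, adjusted p = 0.0894). The difference lay between 1.78 and 2.36 in these fits, against 2.20 with all 12 arrays. RBOHE lost its call in OX without Col-0 meristematic replicate 1 (1.11, adjusted p = 0.154), Col-0 elongation replicate 1 (1.39, adjusted p = 0.0792), Col-0 elongation replicate 2 (1.29, adjusted p = 0.0850), OX meristematic replicate 1 (1.11, adjusted p = 0.128), OX elongation replicate 1 (1.20, adjusted p = 0.112) or OX elongation replicate 2 (1.48, adjusted p = 0.0549). The RBOHE interaction in upb1-1 passed without upb1-1 elongation replicate 1 (2.24, adjusted p = 0.00279).

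Ordered by mean log2(signal + 16), the 3 genes shared their first 4 groups. For each, upb1-1 elongation was highest (7.07 for RBOHE, 7.07 for RBOHG and 6.02 for RBOHI), followed by Col-0 meristematic (6.40, 6.34 and 5.63), upb1-1 meristematic (5.87, 5.78 and 5.55) and Col-0 elongation (5.86, 5.42 and 5.05). RBOHE and RBOHG then had OX elongation (5.61 and 5.04) and OX meristematic (4.82 and 4.15), while RBOHI had OX meristematic (4.94) before OX elongation (4.71). Neighbours in this order mostly did not differ beyond their spread. The only neighbouring step that passed was OX elongation over OX meristematic, at 0.79 for RBOHE and 0.89 for RBOHG, and the step at the top gave 0.67 for RBOHE (adjusted p = 0.0808), 0.73 for RBOHG (adjusted p = 0.0638) and 0.39 for RBOHI (adjusted p = 0.404).

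Across the 12 arrays RBOHE and RBOHG varied together most closely. Pearson's r of their log2(signal + 16) was 0.94 and Spearman's rho 0.91, against 0.79 and 0.83 for RBOHG with RBOHI and 0.67 and 0.77 for RBOHE with RBOHI. The median r with all other tested probe sets was -0.13 for RBOHE, -0.13 for RBOHG and -0.05 for RBOHI. These values describe 12 arrays in 6 groups that share genotypes and zones, so the arrays are not independent points.

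Among 8905 other tested probe sets with 1 named gene, those most like RBOHE by Pearson's r over the 12 arrays were SBTI1.1, a subtilase, at 0.96, AT1G35330 at 0.94 and AT2G44300 at 0.94. RBOHG was most like AT5G55050 at 0.97, AT5G35580 at 0.97 and AT1G17970 at 0.96. For RBOHI the list was AT5G57000 at 0.94, TET12, a tetraspanin, at 0.90 and AT3G61300 at 0.89. An r of at least 0.9 was reached by 0.518% of all tested probe sets for RBOHE, 1.21% for RBOHG and 0.0189% for RBOHI.

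**Figure D3:**
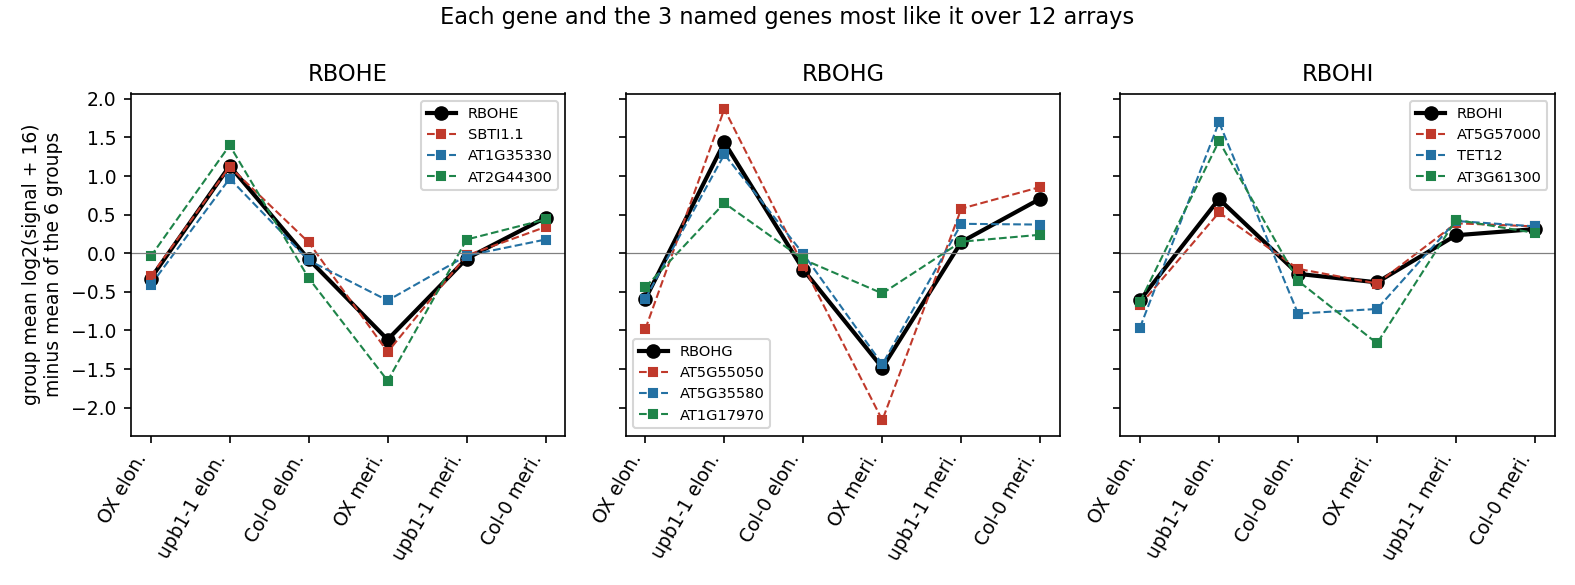
Group means of log2(signal + 16) minus the mean of the 6 groups, for each oxidase gene (black) and the 3 named genes with the highest Pearson's r to it over 12 arrays (dashed); lines only join the groups of 1 gene. Every curve peaks at upb1-1 elongation, and RBOHE and RBOHG with the genes like them have their lowest group at OX meristematic.

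Genes of the pathway around the oxidases were described from lists of regulators, hydrogen peroxide users and marker genes, of which few members had a probe set with 1 named gene. No ferric reductase (the nearest relatives of the oxidases) and no superoxide dismutase had one, so none is analysed here. Among 15 kinases and calcium sensors that act on NADPH oxidases, 2 were tested. FER, a receptor kinase upstream of reactive oxygen in root hairs, gave 1243 and 946 in OX, 1580 and 2215 in upb1-1, and 854 and 1393 in Col-0 elongation zones, and 292 and 453 in OX, 803 and 939 in upb1-1, and 801 and 787 in Col-0 meristematic zones. BIK1, a cytoplasmic kinase that phosphorylates RBOHD in immunity, gave 178 and 186 in OX, 145 and 182 in upb1-1, and 126 and 145 in Col-0 elongation zones, and 42.3 and 83.5 in OX, 65.9 and 92.8 in upb1-1, and 104 and 102 in Col-0 meristematic zones. Of 22 ROP GTPases and regulators only SCN1 was tested, a RhoGDI that keeps RBOHC-dependent oxygen species to the site of the hair.

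In OX against Col-0 meristematic zones all 3 of these regulators were lower, where 23.5% of all tested probe sets were lower and 49.5% were called in either direction. FER fell by 1.09 (adjusted p = 0.00260), SCN1 fell by 1.06 (adjusted p = 0.000917) and BIK1 fell by 0.64 (adjusted p = 0.0427). The FER and SCN1 calls held in all alternatives run. The BIK1 call was lost in 9 of 13 alternatives. It was lost without Col-0 meristematic replicate 1 (-0.63, adjusted p = 0.139), Col-0 meristematic replicate 2 (-0.66, adjusted p = 0.124) or OX meristematic replicate 1 (-0.26, adjusted p = 0.443), after quantile normalization (-0.62, adjusted p = 0.0507) or median centring (-0.60, adjusted p = 0.0620), with no filter (-0.64, adjusted p = 0.0743), with a pseudocount of 64 (-0.41, adjusted p = 0.0507), with no trend in the variance (-0.64, adjusted p = 0.0518) and with only the 4 arrays compared (-0.64, adjusted p = 0.0528). In upb1-1 against Col-0 elongation zones FER rose by 0.77 (adjusted p = 0.0477), while BIK1 gave 0.25 (adjusted p = 0.528) and SCN1 gave -0.16 (adjusted p = 0.639). The FER call was lost in 8 of 13 alternatives, among them without Col-0 elongation replicate 1 (0.42, adjusted p = 0.415), without upb1-1 elongation replicate 2 (0.53, adjusted p = 0.311), and after quantile normalization (0.73, adjusted p = 0.0551) or median centring (0.74, adjusted p = 0.0698).

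Of the 11 catalases and ascorbate peroxidases, which remove hydrogen peroxide, 2 plastid ascorbate peroxidases were tested. In OX against Col-0 meristematic zones SAPX of the stroma fell by 0.82 (adjusted p = 0.000977) and TAPX of the thylakoid gave 0.09 (adjusted p = 0.831). Neither was called in upb1-1 against Col-0 elongation zones, at -0.06 for SAPX (adjusted p = 0.845) and -0.23 for TAPX (adjusted p = 0.664). In OX elongation zones TAPX fell by 1.26 against Col-0 (adjusted p = 0.0173) and by 1.04 against upb1-1 (adjusted p = 0.0280). These 2 calls were lost in 3 and 4 of 12 alternatives. SAPX was not called there, at -0.27 (adjusted p = 0.300) and -0.22 (adjusted p = 0.375). Of 73 class III peroxidases, 6 had such a probe set and 3 were tested. PER72, an enzyme of lignification, fell by 3.95 (adjusted p = 2.64e-06) and PER37 fell by 0.91 (adjusted p = 0.000483) in OX against Col-0 meristematic zones, and PER25 gave 0.61 (adjusted p = 0.111). In upb1-1 against Col-0 elongation zones PER72 rose by 2.34 (adjusted p = 0.00220), PER37 gave 0.14 (adjusted p = 0.612) and PER25 gave 0.04 (adjusted p = 0.951). The list medians were -0.91 in OX meristematic and 0.14 in upb1-1 elongation zones, against 0.10 and -0.02 for all tested probe sets, and 3 tested genes of 73 say little of the family.

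Root hair markers moved with the oxidase genes in some comparisons and apart from them in others. The 2 of 6 markers with a probe set, the expansins EXPA7 and EXPA18, had a summed signal of 39.3 and 43.1 in OX, 1741 and 3272 in upb1-1, and 206 and 383 in Col-0 elongation zones. In meristematic zones the sum was 30.6 and 15.4 in OX, 747 and 846 in upb1-1, and 899 and 789 in Col-0. By this sum the groups stood in the order of RBOHE and RBOHG, with upb1-1 elongation highest and OX meristematic lowest. Taken singly, EXPA18 was lowest in OX elongation zones, at 3.91 and 4.78 against 7.52 and 13.5 in OX meristematic zones. EXPA7 did not separate upb1-1 from Col-0 meristematic zones (mean signals 493 and 494). In upb1-1 elongation zones replicate 2 was above replicate 1 for the sum and for RBOHE and RBOHG. In OX against Col-0 meristematic zones EXPA7 fell by 4.27 (adjusted p = 2.07e-07) and EXPA18 fell by 3.79 (adjusted p = 3.34e-07), and in upb1-1 against Col-0 elongation zones EXPA18 rose by 3.62 (adjusted p = 1.22e-05) and EXPA7 rose by 2.64 (adjusted p = 0.000309). In OX against Col-0 elongation zones EXPA7 fell by 2.17 (adjusted p = 0.00139) and EXPA18 fell by 1.91 (adjusted p = 0.00206). No oxidase gene was called there. Between zones in OX, where RBOHE and RBOHG were called higher, EXPA7 rose by 1.00 (adjusted p = 0.0234) and EXPA18 gave -0.37 (adjusted p = 0.346). Between zones in the other genotypes both markers had the direction of RBOHG. In Col-0 EXPA7 fell by 1.10 (adjusted p = 0.0193) and EXPA18 fell by 2.26 (adjusted p = 9.22e-05). In upb1-1 EXPA7 rose by 1.54 (adjusted p = 0.00163) and EXPA18 rose by 1.56 (adjusted p = 0.000881). The part of root hair cells in the oxidase changes was not tested.

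Markers of other cell types moved as well. GSO1, which encodes a receptor needed for the Casparian strip, the 1 of 10 endodermis genes with a probe set of its own, fell by 1.90 (adjusted p = 8.17e-06) in OX against Col-0 meristematic zones and rose by 1.04 (adjusted p = 0.00635) in upb1-1 against Col-0 elongation zones. That rise was lost without Col-0 elongation replicate 1 (1.02, adjusted p = 0.0625) or upb1-1 elongation replicate 2 (0.82, adjusted p = 0.0753). Its signals were 129 and 98.7 in OX, 342 and 475 in upb1-1, and 185 and 190 in Col-0 elongation zones, and 44.6 and 28.3 in OX, 160 and 197 in upb1-1, and 170 and 184 in Col-0 meristematic zones. No probe set was named for the root cap and xylem lists. The part of endodermal cells in the oxidase changes was not tested either.

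Markers of dividing and stem cells went the other way from the oxidases in OX meristematic zones. BBM, an AP2-type regulator active in stem cells, rose by 1.12 (adjusted p = 0.00290), the Aurora kinase gene AUR1 rose by 0.86 (adjusted p = 0.00581), the spindle checkpoint gene BUBR1 rose by 1.10 (adjusted p = 0.00978), and AUR2 gave 0.63 (adjusted p = 0.0556) against Col-0. PUCHI, a transcription factor of lateral root primordia, rose by 1.11 (adjusted p = 0.0114). The PUCHI call was lost without Col-0 meristematic replicate 1 (0.80, adjusted p = 0.118) or OX meristematic replicate 1 (0.95, adjusted p = 0.0757), and the BUBR1 call without Col-0 meristematic replicate 2 (1.03, adjusted p = 0.0639) or OX meristematic replicate 1 (0.93, adjusted p = 0.0800). In upb1-1 against Col-0 elongation zones AUR1 fell by 0.83 (adjusted p = 0.0214) and AUR2 fell by 0.91 (adjusted p = 0.0259). Both falls were lost without Col-0 elongation replicate 1 (-0.59 with adjusted p = 0.223 for AUR1 and -0.59 with adjusted p = 0.270 for AUR2) and without upb1-1 elongation replicate 2 (-0.53 with adjusted p = 0.214 and -0.84 with adjusted p = 0.134). BBM gave 0.30 (adjusted p = 0.469), PUCHI 0.38 (adjusted p = 0.446) and BUBR1 -0.42 (adjusted p = 0.384) there.

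**Figure D4:**
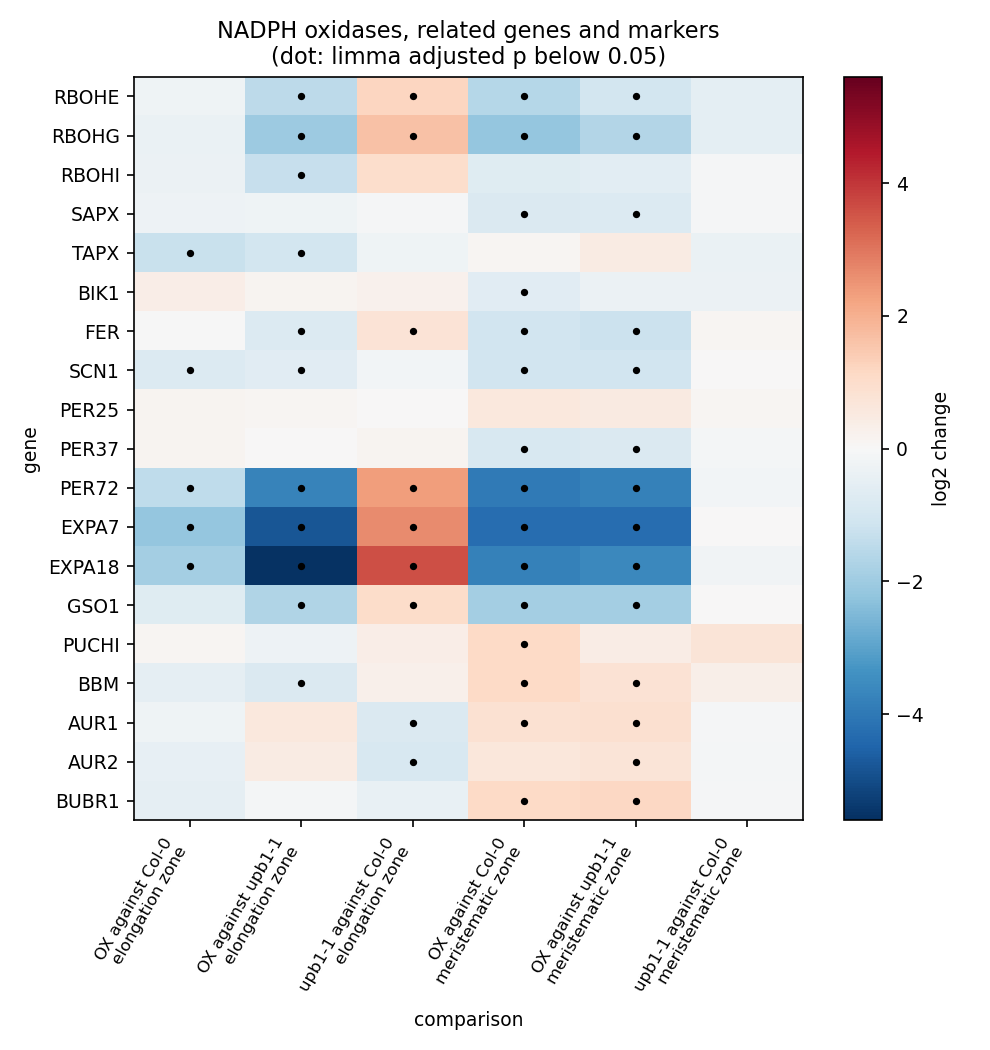
Log2 changes on the log2(signal + 16) scale of the 3 oxidase genes and of the tested genes of the related lists, by gene (rows) and comparison of genotypes (columns); dots mark a limma adjusted p below 0.05. RBOHE and RBOHG are negative with EXPA7, EXPA18, PER72 and GSO1 in OX against either other genotype and positive with them in upb1-1 against Col-0 elongation zones. RBOHE, RBOHG and GSO1 have no dot in OX against Col-0 elongation zones. Of the other peroxidase genes, PER25 is above 0 in every OX column, without a dot. In the OX columns PER37 is below 0 only for meristematic zones. The column for upb1-1 against Col-0 meristematic zones holds no dot.

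The genes beside the oxidases on their chromosomes were set against them, chosen for position and outside the rule for named genes. By the TAIR10.1 gene table, RBOHE lies between ARF19 and AT1G19240, and its interval overlaps that of AT1G19240; RBOHG lies between CHLM, whose interval it overlaps, and the superoxide dismutase gene FSD1; RBOHI lies between BTI2 and TOPP7. ARF19, FSD1 and BTI2 had no probe set with 1 named gene. None of the 3 measured neighbours was called in the meristematic zones where RBOHE and RBOHG fell. Of all tested probe sets 49.5% were called there against Col-0 and 52.0% against upb1-1, so 3 genes without a call say little. AT1G19240 gave -0.07 (adjusted p = 0.795), CHLM, a methyltransferase gene of chlorophyll synthesis, gave 0.03 (adjusted p = 0.933) and TOPP7, a protein phosphatase gene, gave -0.05 (adjusted p = 0.853) in OX against Col-0 meristematic zones. Against upb1-1 meristematic zones the adjusted p was 0.657 for AT1G19240, 0.875 for CHLM and 0.928 for TOPP7. In OX against upb1-1 elongation zones, where all 3 oxidase genes fell, AT1G19240 rose by 0.77 (adjusted p = 0.0135). CHLM gave -0.62 (adjusted p = 0.103) and TOPP7 gave 0.41 (adjusted p = 0.126) there, where 24.2% of all tested probe sets were called in either direction. The rise of AT1G19240 was not called without upb1-1 elongation replicate 2 (0.75, adjusted p = 0.0590), OX elongation replicate 1 (0.75, adjusted p = 0.0642) or OX elongation replicate 2 (0.79, adjusted p = 0.0540), or with only the 4 arrays compared (0.77, adjusted p = 0.0731).

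In upb1-1 against Col-0 elongation zones the neighbours had changes below 0 where the oxidases had changes above 0. Of all tested probe sets 18.8% were called there in either direction. AT1G19240 fell by 0.91 (adjusted p = 0.00780), TOPP7 fell by 0.65 (adjusted p = 0.0259), and CHLM gave -0.77 (adjusted p = 0.0535). The AT1G19240 call was lost without Col-0 elongation replicate 1 (-0.59, adjusted p = 0.125) and with only the 4 arrays compared (-0.91, adjusted p = 0.0867). The TOPP7 call was lost without Col-0 elongation replicate 1 (-0.62, adjusted p = 0.156), Col-0 elongation replicate 2 (-0.69, adjusted p = 0.0542) or upb1-1 elongation replicate 2 (-0.47, adjusted p = 0.200). AT1G19240 gave signals of 183 and 179 in OX, 101 and 97.8 in upb1-1, and 255 and 158 in Col-0 elongation zones. No source used here gives the strand that the probes of overlapping genes read.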

How the data were processed

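RNA from the elongation and meristematic zones of 6-day-old roots was hybridised to 12 ATH1 arrays in 6 groups of 2. The deposited values are linear intensities, 1 per probe set. MAS5 is the tool named in the submitters' processing notes, without a version. By the values, the authors scaled all arrays to a 2% trimmed mean of 250. Detection calls were not used here, and the number of arrays limits the precision. The scale of analysis was log2(signal + 16) without more scaling, and 64 control probe sets were left out. Testing was limited to probe sets at or above the 40th percentile on 2 arrays or more (15834 of 22746). One limma 3.58.1 fit in R 4.3.3 (6 group means, eBayes with trend, prior of 8.75 degrees of freedom) gave 12 comparisons, two-sided, adjusted by Benjamini-Hochberg over the tested probe sets of each. The fit was tested on simulated data. Figures were drawn with matplotlib 3.10.9.

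Names come from the platform annotation, which gives 13513 of 22810 probe sets 1 gene and 503 several, and from a TAIR10.1 gene table used for names and neighbours only. Where a list gene had several probe sets, the brightest on average was used. Named genes were the 3 members in every comparison, UPB1, up to 3 tested members of each other list with the smallest p in OX against Col-0 meristematic and in upb1-1 against Col-0 elongation zones, and the 3 named genes most like each member by Pearson's r. Members and lists were chosen with earlier results of these data known. Alternatives were another pseudocount, filter, scaling, variance model, replicate block, the 4 arrays compared alone, and each array left out.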

Additional observations from a re-analysis of the deposited data

Results flagged for a closer look

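The difference between zones itself differed between genotypes for RBOHG and RBOHE, by the interaction test of the limma fit. For RBOHG the elongation minus meristematic difference was 2.20 higher in upb1-1 than in Col-0 (log2, adjusted p = 0.0207) and 1.80 higher in OX than in Col-0 (adjusted p = 0.0101). For RBOHE it was 1.34 higher in OX than in Col-0 (adjusted p = 0.0391). All 3 tests rest on the same Col-0 arrays, in which RBOHG gave 19.7 and 35.6 in the elongation and 59.2 and 70.9 in the meristematic zone, and RBOHE gave 43.9 and 39.96 in the elongation and 83.4 and 55.9 in the meristematic zone. The 3' to 5' control ratio (log2) was 3.97 in the elongation and 4.17 in the meristematic zone of OX, 4.04 and 2.04 in upb1-1, and 3.93 and 2.22 in Col-0, and its part in these differences was not tested. The RBOHG call in upb1-1 was lost in 8 and the RBOHE call in OX in 10 of 15 alternatives. The RBOHG call in OX was kept in all 15, with values from 0.80 to 3.92.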

How the results depend on the processing

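Of 459 values of the 3 genes under the alternatives, 406 stayed on their side of the threshold, 50 lost a call and 3 gained one. The sign turned in 8 of the 406, none of them called: for RBOHG in the OX by upb1-1 interaction with a pseudocount of 1 (1.09) and without upb1-1 elongation replicate 2 (0.02), for RBOHE there without that array (0.07), and, with 1 array left out, for RBOHI in upb1-1 against Col-0 meristematic zones (0.14 and 0.19), OX against Col-0 elongation zones (0.18), between zones in OX (0.29) and in the OX by Col-0 interaction (-0.17). All 3 genes are too dim for the filter at the 60th percentile, which therefore gave no value, and no other probe set of a member exists to try. The falls of RBOHE and RBOHG in OX against Col-0 meristematic zones held throughout, between -2.43 and -0.80 for RBOHE and between -4.57 (pseudocount 1) and -0.97 (pseudocount 64) for RBOHG. With a pseudocount of 1, RBOHG lost its calls between zones in Col-0 (-1.26, adjusted p = 0.0659) and in the upb1-1 by Col-0 interaction (2.83, 0.0857). With a pseudocount of 64, calls were lost between zones in OX for RBOHE (0.34, 0.136) and RBOHG (0.30, 0.162) and in the OX by Col-0 interaction for RBOHE (0.67, 0.0751), and RBOHE gained one in the upb1-1 by Col-0 interaction (1.13, 0.0315). With no filter, calls were lost between zones for RBOHG in Col-0 (-0.91, 0.0560) and RBOHE in OX (0.79, 0.0802), and in the interactions for RBOHG in upb1-1 (2.20, 0.0548) and RBOHE in OX (1.34, 0.0766), where more probe sets were tested. Quantile normalization and median centring ended the RBOHG zone call in Col-0 (-0.66, 0.125, and -0.65, 0.129) and the RBOHE interaction in OX (1.22, 0.0609, and 1.29, 0.0529). With only the 4 arrays compared, which leaves fewer degrees of freedom, calls were lost for RBOHE in upb1-1 against Col-0 elongation zones (1.22, 0.0634), RBOHI in OX against upb1-1 elongation zones (-1.31, 0.0685), and between zones in OX for RBOHE (0.79, 0.0669) and RBOHG (0.89, 0.0690). The cause was not tested for the other changes.

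With 1 array left out, the group of the lone array is assumed to vary like the others. Ranges were then -1.27 to -0.81 for RBOHE in OX against upb1-1 meristematic zones; 0.73 to 1.70 for RBOHE, 1.22 to 2.07 for RBOHG and 0.53 to 1.41 for RBOHI in upb1-1 against Col-0 elongation zones; and -1.94 to -0.97 for RBOHE and -1.82 to -0.79 for RBOHI in OX against upb1-1 elongation zones. Between zones they were -1.18 to -0.65 for RBOHG in Col-0, 0.72 to 1.69 for RBOHE and 0.86 to 1.71 for RBOHG in upb1-1, and 0.56 to 1.02 for RBOHE and 0.68 to 1.10 for RBOHG in OX. Interactions ranged from 1.27 to 2.24 for RBOHE and 1.78 to 2.62 for RBOHG in upb1-1 against Col-0, and from 1.11 to 1.57 for RBOHE in OX against Col-0. The ranges of counts that follow are taken over all alternatives, not only those with 1 array left out. Counts of called probe sets moved by over 1.5 times in upb1-1 against Col-0, from 3 to 16 around 6 in the meristematic and 531 to 4745 around 2979 in the elongation zone; in elongation zones of OX against Col-0 (781 to 2315 around 2234) and against upb1-1 (1758 to 5321 around 3828); between zones in Col-0 (4015 to 6892 around 6382); and in the interactions (59 to 2403 around 359 for upb1-1 and Col-0, 2361 to 4181 around 3803 for OX and Col-0, 2623 to 4641 around 4151 for OX and upb1-1).

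Replicate numbers are shared across groups. Deviations of same-numbered arrays correlated between -0.15 and 0.28 over the 9 pairs of groups checked, highest for upb1-1 and Col-0 elongation zones. With 2 arrays in a group, these values cannot settle whether same-numbered arrays were handled together. A replicate block changed no call of the 3 genes, with -2.18 (adjusted p = 2.02e-05) for RBOHG in OX against Col-0 meristematic zones and 1.22 (0.0164) for RBOHE in upb1-1 against Col-0 elongation zones.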
